A study of Mus musculus with 4 samples.

Results

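The genes of cholesterol synthesis, of its control by sterol regulatory element binding proteins (SREBPs), and of sterol uptake, transport, storage and efflux were examined in splenic CD4+CD25+ T cells from wild-type (WT) and Helios knockout mice. The set was chosen by gene name and lists 32 genes, of which 31 are among the 16383 genes of the table and all 31 passed the filter on low values. The remaining gene, Hmgcs1, was not analysed here. Cells came from 7-week-old mice, with 2 libraries of WT genotype and 2 of Helios knockout genotype (Ikzf2-/-, the gene that encodes the zinc finger transcription factor Helios). The CD4+CD25+ phenotype enriches regulatory T cells (Tregs), and polyadenylated RNA was sequenced. The labels name neither the part of Ikzf2 removed nor whether each library came from a separate mouse. The p-values therefore reflect library-to-library spread, which may be technical. Values are listed in the order replicate 1, replicate 2 within each genotype.

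Cells make cholesterol from acetyl-CoA through mevalonate, farnesyl diphosphate, squalene and lanosterol. When sterols in the endoplasmic reticulum run low, the escort protein Scap carries SREBPs to the Golgi, where they are cleaved to active transcription factors that switch on the synthesis genes. Insig proteins hold Scap back when sterols are plentiful, and liver X receptors (LXRs), which sense oxysterols, switch on the efflux pumps Abca1 and Abcg1. T cells draw on this pathway when they activate and divide, and in Tregs the mevalonate branch is known to be needed for suppressive function.

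Values are reads normalised by the authors per kb of median transcript length, and 42157138 to 52543072 reads could be recovered per library. The summed value of 12 T cell markers was 420300 to 479858 and that of 12 Treg markers was 208718 to 275590, the latter sum being lowest in Helios KO replicate 2. That library stood apart in markers of other cells: 13 of 14 listed markers of red pulp macrophages and monocytes were in the table, and their summed value was 117986 there against 1735 to 5232 in the other 3 libraries. The summed value of neutrophil markers (11 of 11 in the table) was 39645 there against 77.9 to 149, with S100a8, S100a9, Elane, Mpo, Ngp and Retnlg at 0 in WT replicate 2. Erythroid markers (7 of 10 in the table) summed to 19493 there against 549.9 to 959.6. CD8 and NK cell markers (10 of 10 in the table) summed to 28952 against 3576 to 4504, dendritic cell markers (8 of 8) to 5058 against 591 to 739, and platelet markers (8 of 8) to 2381 against 145 to 202. B cell markers (10 of 10) were also highest there, at a sum of 3261 against 1136 to 2130. Ikzf2 was at 5282 and 7864 in the WT libraries against 4396 and 3104 in the Helios KO libraries. Both knockout libraries were lower, but the gene was not called (log2 fold change -0.80, SE 0.28, limma adjusted p = 1.00). In bulk RNA, fewer cells of a type and less RNA per cell cannot be told apart.

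Levels of different genes were compared per kb of the longest coding transcript, a scale added after the data were seen, because the deposited values are divided by the median length of all annotated transcripts, short ones included. On the deposited scale Soat1 ranked 8 of 31 and on the longest-transcript scale it ranked 24, since its median transcript is 791 bases and its longest coding transcript 8371. Lbr ranked 1 on both scales. Next on the longest-transcript scale were Nr1h2 (3300.3 to 4128), Srebf2 (3297 to 4276) and Npc2 (2822 to 3098). The ranges of Nr1h2 and Srebf2 overlap, so their order is not beyond the spread, while Lbr lay above both in every library. On the deposited scale Srebf1 stood above Srebf2 in every library. On the longest-transcript scale the order was reversed, with Srebf2 above Srebf1 by 1.98 to 2.19 times in the 4 libraries. Lbr stood above Tm7sf2 by 6.70 to 13.2 times and Npc2 above Npc1 by 6.87 to 8.56 times. The 3 lowest medians were those of Fdps (202 to 282), Hsd17b7 (109 to 137) and Idi1 (21.3 to 29.3), of which Fdps and Idi1 have near-identical pseudogenes.

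**Figure D1:**
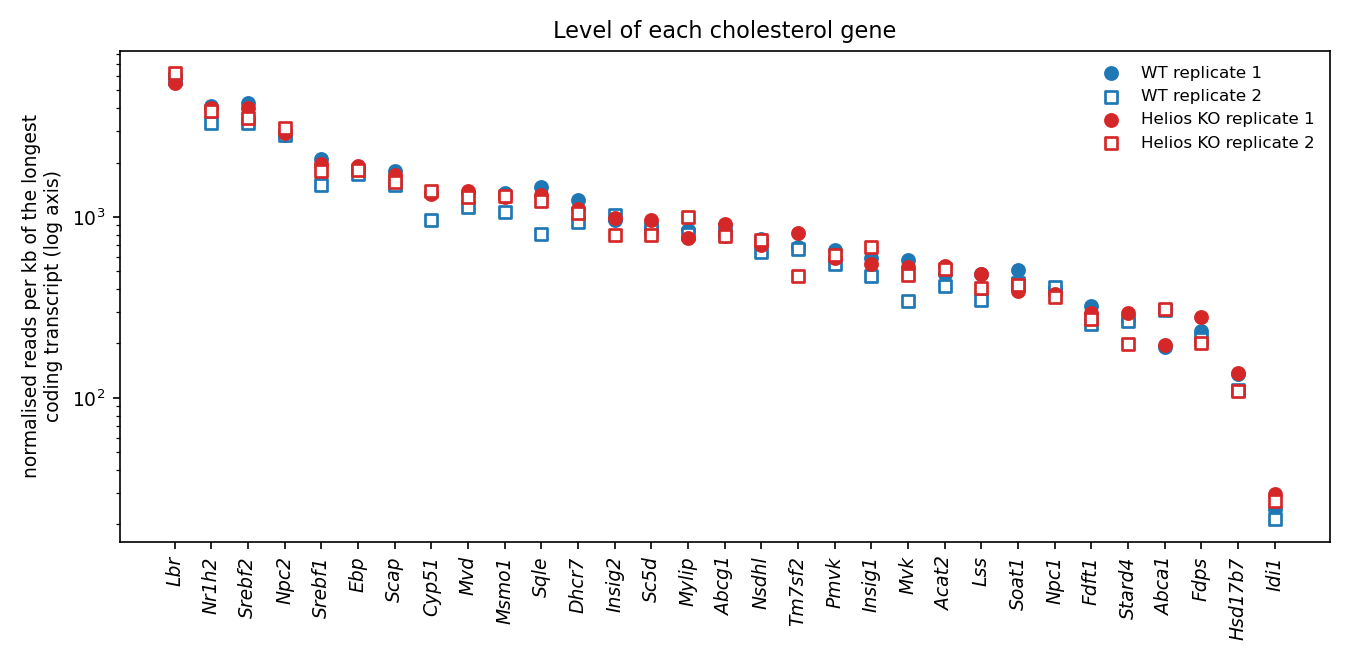
Levels are in normalised reads per kb of the longest coding transcript on a log axis, with 1 point per library and genes in order of their median. Lbr stands highest (5484 to 6241) and Idi1 lowest (21.3 to 29.3), and Mvk, Sqle, Cyp51 and Tm7sf2 show 1 library set below the other 3.

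No gene of the cholesterol set was called changed in the knockout. In limma over 11571 tested genes, 0 of 31 members passed an adjusted p of 0.05, where 0% of all tested genes did, and the smallest adjusted p of a member was 1.00. At an unadjusted p under 0.05 there were 0 members, against 386 of all tested genes (3.34%), of which 148 were higher (1.28%) and 238 lower (2.06%), and limma-voom on the recovered reads gave 0 members at either threshold. The log2 fold changes of the members lay between -0.21 for Soat1 and 0.30 for Idi1, with standard errors of 0.093 to 0.34. These limma p-values do not show that the genotypes are alike, since a standard error of 0.34 leaves wide room around a fold change of a gene such as Abca1.

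The synthesis genes differed between the WT libraries. Of the 18 synthesis genes measured, 17 were higher in WT replicate 1 than in WT replicate 2, where 55.7% of all tested genes were. After rescaling to recovered read totals 15 of 18 were, against 46.4%. As deposited, their median difference was 0.25 on the log2 scale, against 0.032 over all tested genes. WT replicate 2 was the lowest of the 4 libraries in 13 of the 18 synthesis genes (72.2%), where it was lowest in 26.4% of all tested genes, and without Helios KO replicate 2 it was lowest in 16 of 18, against 36.6%. The WT difference was larger than the genotype difference in 22 of all 31 members (71.0%), against 58.7% of all tested genes. These are unlike measures, since the WT difference is between single libraries and the genotype difference between means of 2, which vary less. Of the members, 11 (35.5%) had both knockout values inside the WT range, where 17.1% of all tested genes did. The plot of members by library shows the open blue squares of WT replicate 2 at the left in most rows of the first 4 groups.

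**Figure D2:**
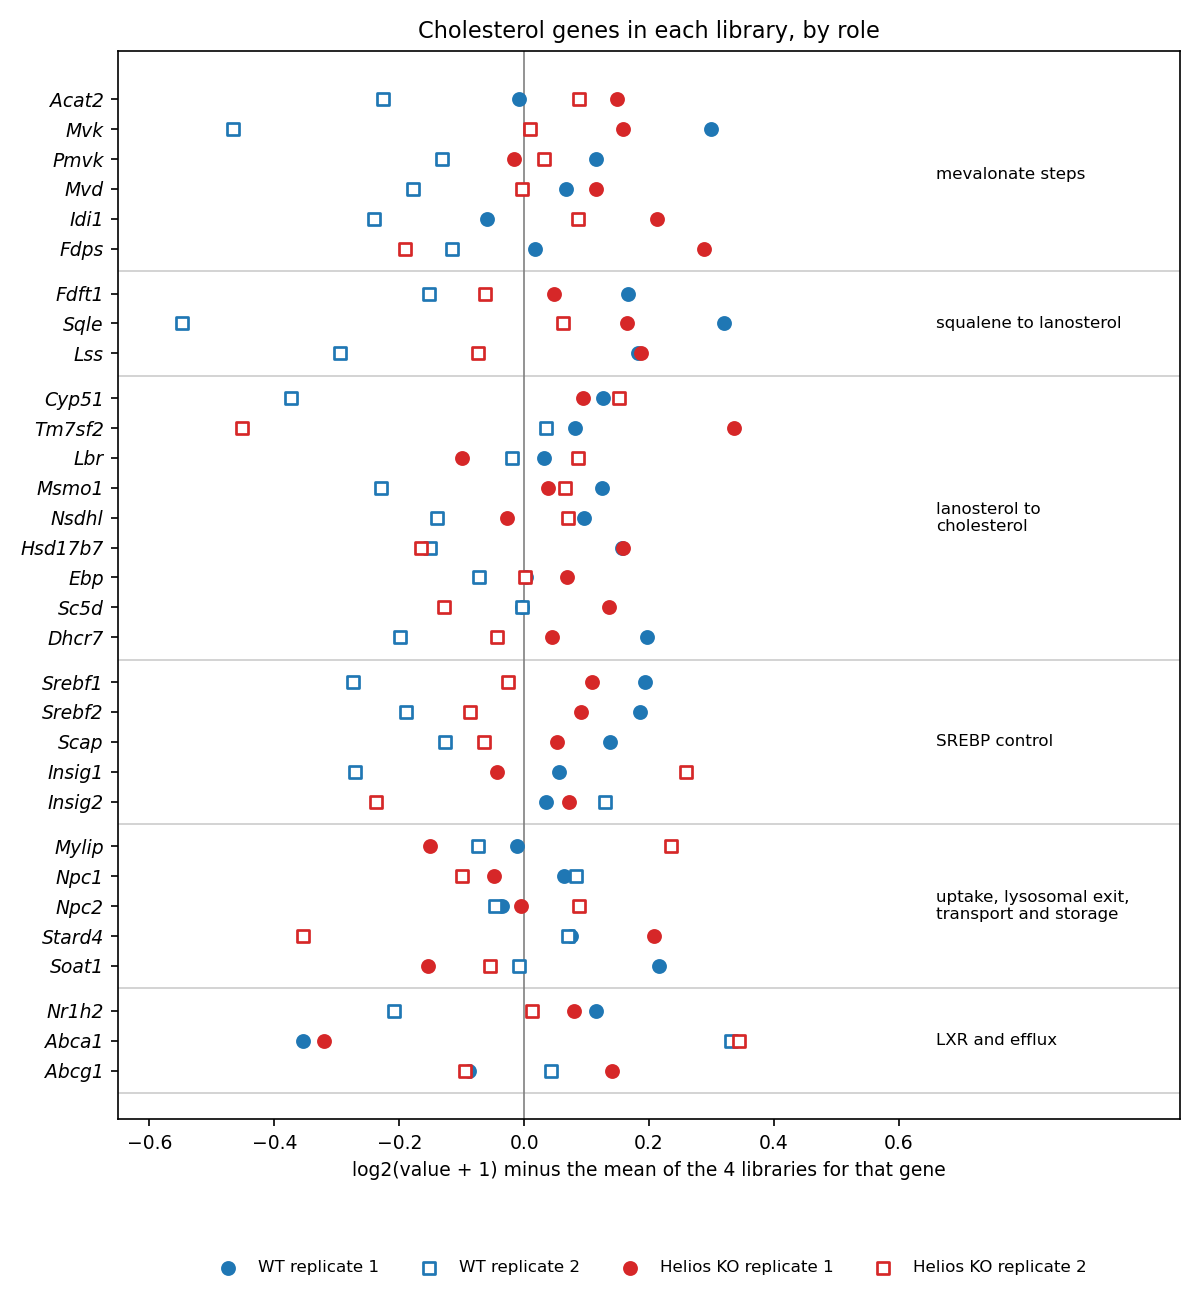
Each row is 1 gene and each point 1 library, placed by its log2(value + 1) minus the mean of the 4 libraries for that gene, with genes grouped by role. WT replicate 2 is the leftmost point in 13 of 18 synthesis genes, and the knockout points of 11 of the 31 members lie between the WT points.

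The 3 genes from squalene to lanosterol had the largest median WT difference of the role groups, 0.48. Sqle, which encodes squalene epoxidase, a rate-limiting enzyme of the later pathway (ENSMUSG00000022351, chromosome 15, 59315077 to 59331192, mm10), was at 1499 and 821 in the WT libraries against 1345 and 1254 in the Helios KO libraries. WT replicate 2 stood alone at the low end, and both knockout libraries lay between the WT libraries. The recovered reads behind these values were 4299 and 2366 for WT against 3149 and 3416 for Helios KO. The log2 fold change of Sqle was 0.23 (SE 0.32), and its WT libraries differed by 0.87. Lss, which cyclises oxidosqualene to lanosterol (ENSMUSG00000033105, chromosome 10, 76531588 to 76557138), was at 979 and 703 in the WT libraries against 982 and 819 in the Helios KO libraries, again lowest in WT replicate 2. Fdft1, squalene synthase, joins farnesyl units to squalene and had a smaller WT difference of 0.32. Its log2 fold change was -0.014 (SE 0.17). The exons of Fdft1 overlap Ctsb on the opposite strand over 774 bases (18.3% of its exonic bases), and without strand information the reads of this pair cannot be separated there. Fdft1 also shares 1249 bases at 97.4% identity with the processed pseudogene Gm6781, so its value is uncertain. Of the 3 genes of these steps, 2 lay higher and 1 lower in the knockout mean, with a median log2 fold change of 0.11 against -0.0014 over all tested genes.

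Among the mevalonate steps, 6 of 6 measured genes had a positive log2 fold change (median 0.14), where 49.7% of all tested genes did, and 2 had genotypes that did not overlap. Without WT replicate 2, the log2 fold change was negative in 3 of the 6, at -0.22 for Mvk, -0.11 for Pmvk and -0.010 for Mvd. Over all tested genes, the knockout lay wholly above WT in 12.5% and wholly below it in 15.7%. Acat2, the cytosolic thiolase that forms acetoacetyl-CoA (ENSMUSG00000023832, chromosome 17, 12942890 to 12960747), was at 581 and 499 in the WT libraries against 648 and 621 in the Helios KO libraries. Both knockout libraries lay above both WT libraries, with means of 539.8 ± 57.6 (SD, n = 2) for WT against 634 ± 19.0 (SD, n = 2) for Helios KO and a log2 fold change of 0.24 (SE 0.15). Idi1, the isomerase of isopentenyl diphosphate (ENSMUSG00000058258, chromosome 13, 8885501 to 8892451), was at 98.4 and 86.7 in the WT libraries against 119 and 109 in the Helios KO libraries, also with both knockout libraries higher. Its log2 fold change was 0.30 (SE 0.27), on only 69 to 82 recovered reads per library. Both of these values are uncertain because of near-identical copies. Acat2 shares 1477 bases at 97.7% identity with Acat3, and Idi1 shares 684 bases at 100% identity with the processed pseudogene Gm13502.

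Mvd, the decarboxylase with the highest mean of this group (ENSMUSG00000006517, chromosome 8, 122433601 to 122443422), was at 1320.2 and 1114 in the WT libraries against 1366 and 1258 in the Helios KO libraries. Its genotypes overlapped, and the knockout values lay near WT replicate 1. Mvk, mevalonate kinase (ENSMUSG00000041939, chromosome 5, 114444269 to 114460591), was at 919.6 and 540.5 in the WT libraries against 834 and 752 in the Helios KO libraries, with both knockout libraries inside the WT range. Its log2 fold change was 0.17 (SE 0.28) and its WT libraries differed by 0.77. The log2 fold change was 0.016 (SE 0.15) for Pmvk, the next kinase, and 0.098 (SE 0.22) for Fdps, which makes farnesyl diphosphate. The genotypes overlapped in both. Fdps has 4 processed pseudogenes with at least 200 bases at 95% identity or more, and 26.7% of its exonic bases overlap the gene Gm43738 on the same strand, so its value is uncertain too.

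Of the 9 genes from lanosterol to cholesterol, 9 overlapped between the genotypes, where 8309 of all 11571 tested genes did. The median log2 fold change of the 9 was 0.0079. Cyp51, the lanosterol demethylase (ENSMUSG00000001467, chromosome 5, 4081145 to 4104746), was at 7269.9 and 5139.9 in the WT libraries against 7107 and 7395 in the Helios KO libraries. Here WT replicate 2 was the library apart, and the other 3 lay within a narrow band, with a WT difference of 0.50 and a log2 fold change of 0.25 (SE 0.18). Msmo1, a methyl sterol oxidase, and Dhcr7, the reductase of the last step of one branch, were also lowest in WT replicate 2. Their WT differences were 0.35 and 0.40, and both knockout values lay inside the WT range.

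The sterol reductase step is served by 2 members, Lbr and Tm7sf2. Lbr, the lamin B receptor, an inner nuclear membrane protein with sterol reductase activity (ENSMUSG00000004880, chromosome 1, 181815335 to 181843046), had the highest level of all members at 33617 and 32460.3 in the WT libraries against 30698 and 34935 in the Helios KO libraries. The genotypes overlapped and the log2 fold change was -0.013 (SE 0.11). The exons of Lbr overlap Dnah14 on the opposite strand over 9.24% of their bases. Tm7sf2, the reductase of the endoplasmic reticulum (ENSMUSG00000024799, chromosome 19, 6062821 to 6068373), was at 1311 and 1269 in the WT libraries against 1564 and 905 in the Helios KO libraries. The WT libraries were close to each other, and the knockout libraries lay on opposite sides of them, 0.79 apart on the log2 scale. Exons of Tm7sf2 overlap those of Vps51 on the same strand over 532 bases. Nsdhl, a sterol dehydrogenase, Hsd17b7, a keto reductase, Ebp, a sterol isomerase, and Sc5d, a desaturase, had log2 fold changes of -0.0065 to 0.070. As deposited, Sc5d was the only synthesis gene not higher in WT replicate 1, at 2479 and 2479.8 in the WT libraries against 2732 and 2275 in the Helios KO libraries.

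**Figure D3:**
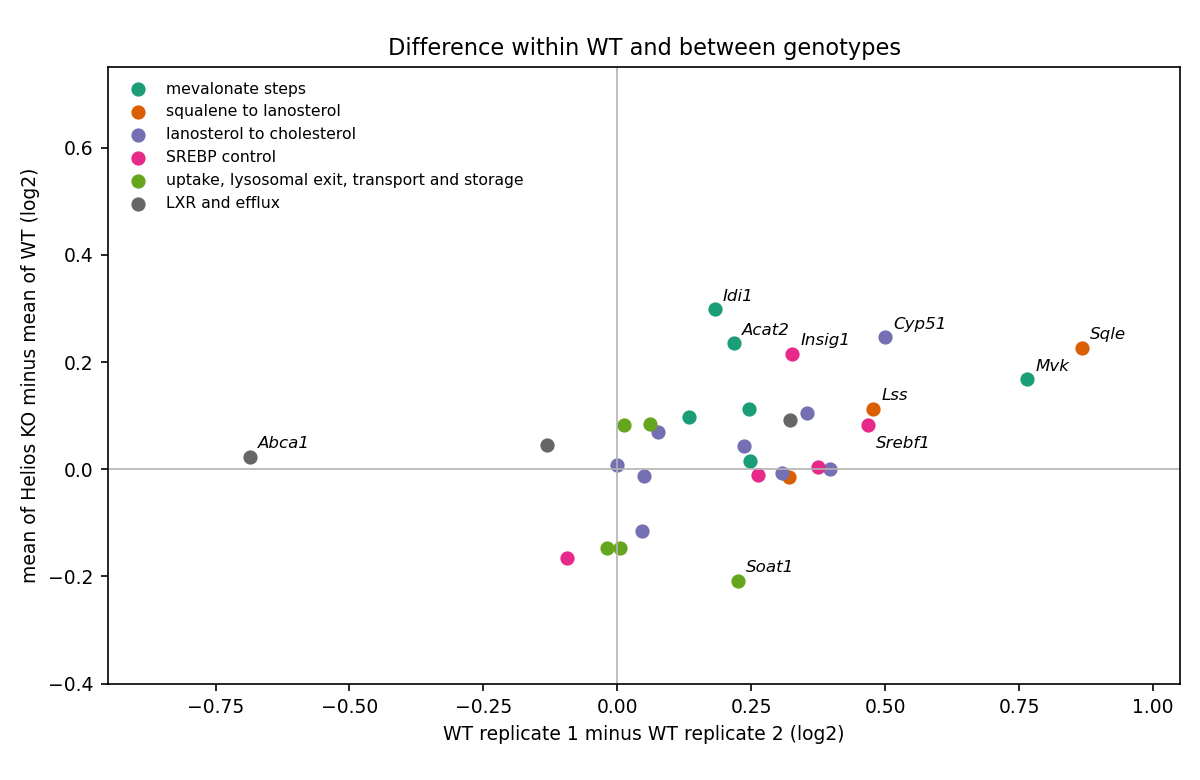
Each point is a member gene, with the difference between the WT libraries on the x axis and the fitted difference between genotypes on the y axis (both log2, the same scale per unit), coloured by role. Sqle (0.87) and Mvk (0.77) lie far to the right while the genotype differences of all 31 members stay between -0.21 and 0.30. The x axis sets single libraries against each other and the y axis means of libraries, which vary less.

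Promoter sequences are shown for the 4 members with the largest WT difference among those with exactly 1 window in the RefSeq promoter table (GRCm38.p6, the same assembly as mm10; 250 bases before to 50 after the annotated start), because the results turn on the WT difference of such genes. Capitals mark CCAAT (or ATTGG, its reverse complement), the letters bound by NF-Y, a partner of SREBPs, and TCACNCCA on either strand, a short form of the sterol regulatory element.
Mvk (GRCm38.p6, chr5:114444019-114444318, plus strand): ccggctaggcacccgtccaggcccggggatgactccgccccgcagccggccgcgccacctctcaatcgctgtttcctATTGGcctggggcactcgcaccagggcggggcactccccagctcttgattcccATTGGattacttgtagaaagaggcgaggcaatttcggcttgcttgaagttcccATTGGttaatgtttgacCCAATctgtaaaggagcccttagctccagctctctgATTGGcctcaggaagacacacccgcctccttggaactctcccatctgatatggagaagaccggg
Cyp51 (GRCm38.p6, chr5:4104648-4104947, minus strand): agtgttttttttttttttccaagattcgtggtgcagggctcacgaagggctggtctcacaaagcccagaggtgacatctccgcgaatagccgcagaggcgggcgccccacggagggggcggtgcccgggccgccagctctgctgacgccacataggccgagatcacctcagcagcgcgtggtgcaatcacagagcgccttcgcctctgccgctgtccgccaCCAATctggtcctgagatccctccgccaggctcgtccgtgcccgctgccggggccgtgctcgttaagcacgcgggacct
Lss (GRCm38.p6, chr10:76531355-76531654, plus strand): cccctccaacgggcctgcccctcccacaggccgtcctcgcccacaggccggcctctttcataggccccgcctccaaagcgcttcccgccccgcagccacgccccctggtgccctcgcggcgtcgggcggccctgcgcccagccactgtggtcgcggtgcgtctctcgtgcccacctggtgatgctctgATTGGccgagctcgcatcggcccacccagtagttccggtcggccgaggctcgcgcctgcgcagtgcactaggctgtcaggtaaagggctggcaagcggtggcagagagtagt
Srebf2 (GRCm38.p6, chr15:82147019-82147318, plus strand): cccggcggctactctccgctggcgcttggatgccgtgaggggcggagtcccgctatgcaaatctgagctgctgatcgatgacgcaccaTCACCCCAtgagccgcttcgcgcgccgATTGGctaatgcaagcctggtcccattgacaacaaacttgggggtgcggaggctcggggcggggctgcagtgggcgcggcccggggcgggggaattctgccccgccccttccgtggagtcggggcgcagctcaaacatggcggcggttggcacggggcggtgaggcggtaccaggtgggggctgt
The Mvk window held 5 CCAAT matches, 4 of them on the minus strand, whereas Cyp51, Lss and Srebf2 held 1 each. Of the 25 measured members with a window, 21 (84.0%) held CCAAT in at least 1 window. Of the 27025 genes in the promoter table, 41.1% did. Those genes were taken whether or not they passed the filter on low values, which all 25 members did. The shares here are therefore not matched for expression, and what sets members apart from all genes was not tested. The GC box GGGCGG, searched on both strands, was found in 23 of 25 members (92.0%) and in 38.2% of all genes. The full element TCACNCCAC was found in 0 of 25 members and 1.44% of all genes, and the short form TCACNCCA, which the full element contains, in 2 of 25 members, Msmo1 and Srebf2, against 4.97% of all genes. A match is a run of letters and not a shown binding site, and a missing match says only that these letters are not in the window. Abcg1, Fdft1, Fdps, Npc1, Sqle and Stard4 had no window in the table.

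WT replicate 2 was also the lowest library in 4 of the 5 SREBP control genes, Insig2 being the exception. Srebf2, the SREBP that drives most cholesterol synthesis genes (ENSMUSG00000022463, chromosome 15, 82147181 to 82205379), was at 10959 and 8449.6 in the WT libraries against 10264 and 9077 in the Helios KO libraries, and its log2 fold change was 0.0044 (SE 0.15). Srebf1, whose product acts more on fatty acid genes (ENSMUSG00000020538, chromosome 11, 60199089 to 60222581), was at 11901 and 8607 in the WT libraries against 11221 and 10226 in the Helios KO libraries, and its log2 fold change was 0.082 (SE 0.17). In both genes the knockout libraries lay inside the WT range. Scap, the sterol-sensing escort and the group's highest deposited value (ENSMUSG00000032485, chromosome 9, 110333288 to 110384950), was at 17098 and 14247 in the WT libraries against 16136 and 14877 in the Helios KO libraries, again with both knockout libraries between the WT libraries. Exons of a gene on the opposite strand, 5830462I19Rik, overlap 13.2% of its exonic bases. The WT difference of Scap was 0.26, against 0.47 for Srebf1 and 0.38 for Srebf2. Of 5 control genes 0 were called and the median log2 fold change was 0.0044.

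The Insig genes differed from each other in Helios KO replicate 2. Insig1, itself an SREBP target that retains Scap (ENSMUSG00000045294, chromosome 5, 28071363 to 28078662), was at 924 and 736 in the WT libraries against 862 and 1064 in the Helios KO libraries. It was highest in Helios KO replicate 2 and lowest in WT replicate 2. Insig2, the relative that is less dependent on SREBPs (ENSMUSG00000003721, chromosome 1, 121304353 to 121332589), was at 5012 and 5351 in the WT libraries against 5143 and 4148 in the Helios KO libraries, lowest in Helios KO replicate 2 and highest in WT replicate 2. Set per kb of the longest coding transcript, the level of Insig2 over that of Insig1 was 1.63 and 2.18 for WT against 1.79 and 1.17 for Helios KO. The log2 fold changes were 0.22 (SE 0.18) for Insig1 and -0.17 (SE 0.13) for Insig2. The ratio was lowest in Helios KO replicate 2. That library had the highest summed macrophage, neutrophil, erythroid, CD8 and NK cell, dendritic, platelet and B cell markers. Their part in this difference was not tested.

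Uptake, lysosomal exit, transport and storage genes held 3 of the 5 members whose genotypes did not overlap. Soat1, which esterifies cholesterol for storage (ENSMUSG00000026600, chromosome 1, 156424525 to 156474331), was at 5360.4 and 4588 in the WT libraries against 4147 and 4443 in the Helios KO libraries. Both knockout libraries lay lower, with means of 4974 ± 546 (SD, n = 2) for WT against 4295 ± 209.6 (SD, n = 2) for Helios KO, a ratio of 0.863 and a log2 fold change of -0.21 (SE 0.12). Its unadjusted limma p of 0.128 was the smallest of all members. Npc1, the membrane protein that exports cholesterol from lysosomes (ENSMUSG00000024413, chromosome 18, 12189692 to 12236400), was at 954 and 967 in the WT libraries against 882 and 851 in the Helios KO libraries, with both knockout libraries lower. Its soluble partner Npc2, which hands cholesterol to it (ENSMUSG00000021242, chromosome 12, 84754562 to 84773152), was at 3693 and 3662 in the WT libraries against 3772 and 4020.0 in the Helios KO libraries, with both knockout libraries higher. Their log2 fold changes were -0.15 (SE 0.11) and 0.083 (SE 0.093). Taking both directions together, 5 of 31 members (16.1%) had genotypes that did not overlap, where 28.2% of all tested genes did.

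The WT libraries hardly differed in these transport genes. The differences were -0.019 for Npc1, 0.012 for Npc2 and 0.0047 for Stard4, a sterol carrier of the cytosol, and Soat1 was the exception at 0.22. Stard4 (ENSMUSG00000024378, chromosome 18, 33199355 to 33213862) was at 1423 and 1418 in the WT libraries against 1561 and 1056 in the Helios KO libraries, so the knockout libraries lay on both sides of WT and 0.56 apart. Mylip, a ubiquitin ligase and LXR target that limits lipoprotein uptake (ENSMUSG00000038175, chromosome 13, 45389742 to 45412022), was at 1029 and 986 in the WT libraries against 934 and 1221 in the Helios KO libraries. Its genotypes overlapped, with the highest value in Helios KO replicate 2. The median log2 fold change of the 5 genes was -0.15, with 0 called.

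The LXR and efflux members overlapped between the genotypes in 3 of 3 genes, where 8309 of all 11571 tested genes did. Nr1h2, which encodes LXR beta, the form present in most tissues (ENSMUSG00000060601, chromosome 7, 44549616 to 44553951), was at 11969 and 9568 in the WT libraries against 11674 and 11150.2 in the Helios KO libraries, lowest in WT replicate 2 with the knockout libraries inside the WT range. Abcg1, a pump that passes cholesterol to mature lipoprotein particles (ENSMUSG00000024030, chromosome 17, 31057675 to 31117988), was at 4216 and 4619 in the WT libraries against 4940.0 and 4196 in the Helios KO libraries, and its log2 fold change was 0.045 (SE 0.12). Abca1, which loads cholesterol onto lipid-poor apolipoprotein (ENSMUSG00000015243, chromosome 4, 53030787 to 53159895), was at 354 and 570.3 in the WT libraries against 363 and 575 in the Helios KO libraries. It was low in replicate 1 and high in replicate 2 of each genotype, so that the genotype means nearly coincided at a log2 fold change of 0.023 (SE 0.34), while the WT libraries differed by -0.69 and the knockout libraries by -0.66. Abca1 thus had a WT difference opposite in sign to that of the synthesis genes. The summed macrophage and monocyte markers were also higher in WT replicate 2 (5232) than in WT replicate 1 (3255), and were at 1735 and 117986 in the knockout libraries. Their part in the Abca1 difference was not tested.

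Several other LXR and oxysterol genes were highest in Helios KO replicate 2. Of 16 such genes listed, 15 were in the table and 11 were tested, and 0 were called in limma. In that library, 9 of the 11 had their highest value, where 3705 of all 11571 tested genes and 6 of 31 members did. Of the 11, 6 (Nr1h3, Abcg4, Apoe, Cyp27a1, Pltp and Lpl) lay at least 4-fold above every other library there. Of all tested genes 443 (3.83%) did, and of the 31 members 0. This was not confined to that list, since Lrp1 of the uptake list also lay at least 4-fold higher there. Fads2 of the fatty acid list did too, but it passed the filter on low values only through the Helios KO libraries. Nr1h3, which encodes LXR alpha, a form typical of macrophages, was at 53.5 and 70.3 in the WT libraries against 63.5 and 748 in the Helios KO libraries. Apoe, a lipoprotein component that macrophages secrete, was at 1628 and 1709 in the WT libraries against 1218 and 24653 in the Helios KO libraries. The macrophage markers Csf1r (472.9 and 802 in WT, 226 and 19446 in the knockout) and Spic (36.8 and 69.6 in WT, 21.4 and 1847 in the knockout) were also highest there. So were the summed CD8 and NK cell, B cell, dendritic cell, neutrophil, erythroid and platelet markers. The part of none of these markers was tested. The median log2 fold change of the 11 genes was 1.72 with all libraries and 0.050 without Helios KO replicate 2.

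**Figure D4:**
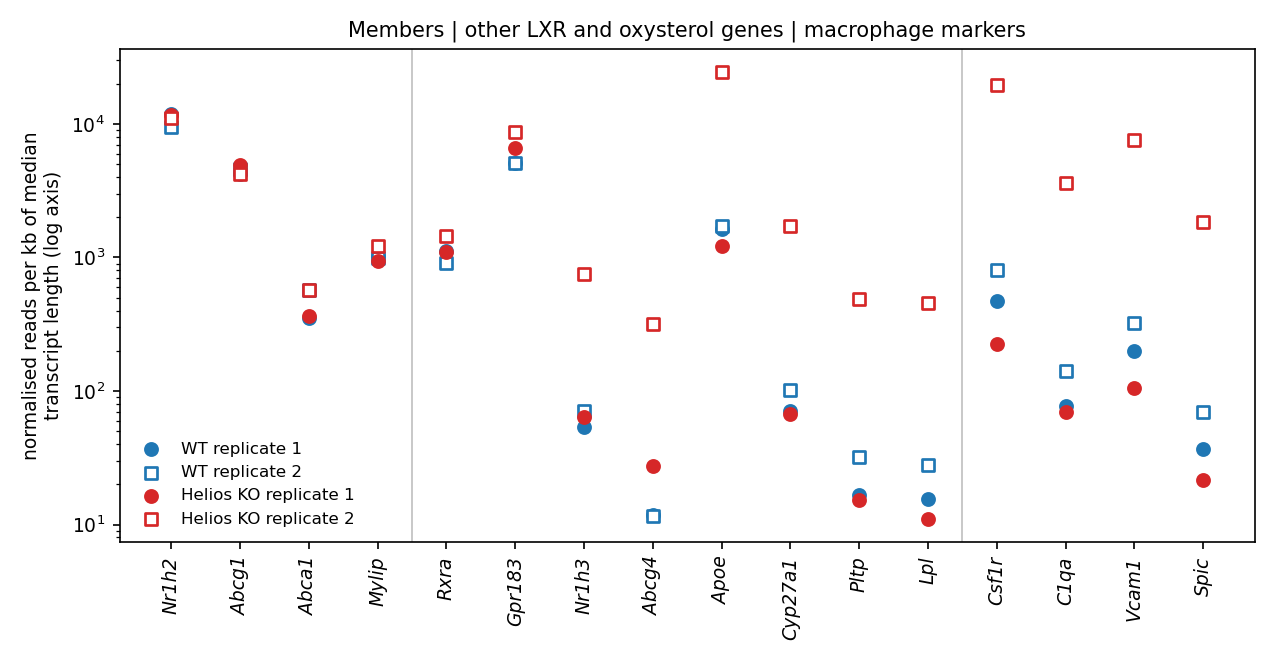
Deposited values on a log axis, 1 point per library, for the LXR-related members at left, other LXR and oxysterol genes in the middle and macrophage markers at right. Helios KO replicate 2 lies within the range of the other libraries or close to it for Nr1h2, Abcg1, Abca1 and Mylip, and far above them for Nr1h3, Apoe, Cyp27a1, Pltp, Lpl and the macrophage markers.

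Within that list the genes with the smallest p were Gpr183 and Abcg4. Gpr183, a receptor for oxysterols that guides lymphocyte movement, was at 5122 and 5088 in the WT libraries against 6596 and 8688 in the Helios KO libraries, with both knockout libraries higher. Its log2 fold change was 0.57 (SE 0.15) with an unadjusted limma p of 0.0112. It was 0.37 when Helios KO replicate 2 was left out and 0.77 when Helios KO replicate 1 was left out. The latter fit sets Helios KO replicate 2, the library highest in the summed markers of other cells, alone against WT. In both fits the spread of the remaining knockout library was taken from WT. Abcg4, a relative of Abcg1, was at 11.7 and 11.7 in the WT libraries against 27.4 and 319 in the Helios KO libraries, highest in Helios KO replicate 2. Its log2 fold change was 2.91 (SE 1.28), and 1.16 when that library was left out. Ch25h, which makes an oxysterol that blocks SREBP processing, was listed at 0 in 3 libraries and at 3.57 in Helios KO replicate 2.

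Of 5 tested synthesis genes outside the members 0 were called, with log2 fold changes of 0.10 (SE 0.10) for Acat1 and 0.045 (SE 0.094) for Erg28, which had the smallest p. Of 11 SREBP processing and sterol-sensing genes 0 were called, with Paqr3, a Golgi anchor of the Scap complex, at -0.61 (SE 0.26) and Rnf145, a ligase that acts on Scap, at 0.14 (SE 0.091). Of 18 further uptake, transport and storage genes 0 were called. There Lrp8, a lipoprotein receptor, was at 258 and 271 in the WT libraries against 381 and 356 in the Helios KO libraries, with both knockout libraries higher and a log2 fold change of 0.48 (SE 0.17). In that list Lrp1, an endocytic receptor chosen here after its values were seen, had the largest log2 fold change, 2.22 (SE 2.41). It was at 141 and 144 in the WT libraries against 89.5 and 4944 in the Helios KO libraries, so it was high in Helios KO replicate 2 and lowest in Helios KO replicate 1.

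In neighbouring lipid branches the median WT difference was nearer to 0. The 14 tested fatty acid genes that SREBP1 controls had a median WT difference of 0.018, with WT replicate 1 higher in 9. The 15 prenylation and dolichol genes had -0.027, with WT replicate 1 higher in 6, where it was higher in 55.7% of all tested genes. WT replicate 2 was nevertheless the lowest library in 8 of the 14 fatty acid genes. It was lowest in 2 of the 15 prenylation and dolichol genes and in 26.4% of all tested genes. Whether the medians of these branches differ from that of the synthesis genes was not tested. Of the fatty acid genes 0 were called. The smallest p was that of Acsl3, which activates long-chain fatty acids, at 1253 and 1279 in the WT libraries against 1926 and 1819 in the Helios KO libraries. Its knockout libraries both lay higher, with means of 1266 ± 18.2 (SD, n = 2) for WT against 1873 ± 75.5 (SD, n = 2) for Helios KO, a log2 fold change of 0.56 (SE 0.10) and a limma adjusted p of 0.790. Without Helios KO replicate 2 its log2 fold change was 0.61 and without Helios KO replicate 1 it was 0.52. Fads2, a desaturase, was at 4.28 and 4.26 in the WT libraries against 13.1 and 229.7 in the Helios KO libraries, high in Helios KO replicate 2. Only its Helios KO values reached the filter minimum of 10. Fads2 is among the 9 genes higher in WT replicate 1 and the 8 lowest in WT replicate 2, although its WT values hardly differed. In the prenylation and dolichol list 0 were called, with Coq2, of ubiquinone synthesis, at 0.27 (SE 0.10) and Pdss1, of the same route, at 0.16 (SE 0.13).

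The sign of the genotype difference in the synthesis genes depended on which WT library was used. Their median log2 fold change was 0.084 with all libraries, 0.18 without WT replicate 1 and -0.074 without WT replicate 2. Without Helios KO replicate 1 it was 0.047, and without Helios KO replicate 2 it was 0.16. In each of these fits 0 of 31 members were called in limma, where 6.63% of tested genes were called when Helios KO replicate 1 was left out and 0.353% when replicate 2 was. The lowest limma adjusted p of a member in any of them was 0.118, for Tm7sf2, and 8 of 31 members kept their sign throughout. These 8 were Acat2, Idi1, Ebp, Insig1, Insig2, Npc1, Npc2 and Soat1.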

How the data were processed

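Per the labels' protocols, 5 ng of RNA gave full-length cDNA by the SMART-Seq v4 low-input method (10 PCR cycles) and libraries by Tn5 tagmentation (12 cycles), which does not mark strand. Per the submitters' processing notes, reads were handled with bcl2fastq 2.17.1.14 and build mm10. The normalisation method was not given in the sources used here, nor were aligner and counter. Each deposited signal value is, per the file headers, a normalised read number per kb of median transcript length. Positions, lengths and overlaps came from GENCODE M21 (GRCm38), which matched 16383 of 16383 genes; 4425 of its 21951 protein-coding genes (20.2%), Hmgcs1 among them, carry identifiers past the last of the table and were left out. Read numbers were recovered from the step between low values (96.9% of 58026 nonzero values whole within 0.01 read).

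Genes with at least 10 in at least 2 libraries (11571) were fitted with limma 3.58.1 in R 4.3.3 on log2(value + 1), with genotype as the only term, trend and robust moderation, two-sided tests and Benjamini-Hochberg adjustment over all tested genes. Fold changes are on that scale, which understates changes of low genes. The fit was also run on simulated data with independent noise in each gene. That simulation holds no joint shift of many genes in a single library, so it cannot show how the fit handles one. Near-identical copies were sought with blastn 2.17.0 (at least 200 bases at 95% identity). Members and lists were chosen with earlier results of these data known. Values in every library were set to be given for members whose genotypes did not overlap and for the highest of each role; those of Mvk, Lss, Cyp51, Tm7sf2, Sc5d, Srebf1, Srebf2, Insig1, Insig2, Stard4, Mylip, Abca1, Abcg1, Apoe, Csf1r and Spic were added after their values were seen. The other pathway lists name their 2 genes of smallest p, except that some listed genes are not reported here. Alternatives were rescaling to median ratios or recovered totals, no filter or a minimum of 50, pseudocounts of 0.1 and 10, limma-voom, a replicate block, and leaving out each library.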

Additional observations from a re-analysis of the deposited data

How the results depend on the processing

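With 2 libraries per group, a mean rests on few samples and the depth of 69 reads or more per member and library is a limit for Idi1 alone. All 31 members kept their sign, and 0 were called, under both rescalings, both filters, both pseudocounts, limma-voom and the replicate block (setting the replicate number as a block called 0 genes, 0 members, and left the median of the synthesis genes at 0.084). The deviations of same-numbered libraries from their group means correlated at 0.11 across 11571 genes, and with 2 pairs the libraries share only a number. The median difference between the WT libraries in the synthesis genes, computed after the data were seen, was 0.25 as deposited, 0.21 after rescaling to median ratios and 0.19 after rescaling to recovered totals, where those of all tested genes were 0.032, -0.0061 and -0.020. Leaving out 1 library at a time (a lone library is assumed to vary like the other group) called 0 to 758 genes and 0 members, and gave 16 to 22 members without overlap where fewer libraries make this easier. The share of all tested genes without overlap in these fits is not given here. The counts of 16 to 22 therefore do not set the members apart from other genes. The median log2 fold changes in these fits ran over 0.011 to 0.29 for the mevalonate steps and -0.17 to 0.35 for squalene to lanosterol. They ran over -0.073 to 0.15 for lanosterol to cholesterol, -0.14 to 0.19 for SREBP control and -0.16 to -0.096 for uptake to storage. For LXR and efflux they ran over -0.021 to 0.13, and for all synthesis steps over -0.074 to 0.18. The 23 members that changed sign ran over -0.17 to 0.15 for Fdft1, -0.11 to 0.081 for Lbr, -0.17 to 0.16 for Hsd17b7, -0.14 to 0.12 for Scap, -0.32 to 0.37 for Abca1, -0.073 to 0.16 for Abcg1, -0.22 to 0.55 for Mvk, -0.11 to 0.14 for Pmvk, -0.010 to 0.23 for Mvd, -0.21 to 0.66 for Sqle, -0.13 to 0.35 for Lss, -0.0040 to 0.50 for Cyp51, -0.073 to 0.28 for Msmo1, -0.075 to 0.16 for Nsdhl, -0.20 to 0.20 for Dhcr7, -0.15 to 0.32 for Srebf1, -0.18 to 0.19 for Srebf2, -0.069 to 0.25 for Nr1h2, -0.14 to 0.34 for Fdps, -0.12 to 0.14 for Sc5d, -0.51 to 0.28 for Tm7sf2, -0.11 to 0.28 for Mylip, -0.43 to 0.14 for Stard4. The cause was not tested.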
